A study of Mus musculus with 7 samples.

Results

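Interferon-stimulated genes are the antiviral and regulatory genes that a cell switches on after it has sensed interferon. The 33 genes described here were taken by symbol from a list that was chosen with earlier results of these data known. Each had 1 row among the 23358 gene rows of the deposited table. All 33 were tested by the authors and reached 1 FPKM (fragments counted per kilobase of RNA and corrected for library size) in at least 1 group, as did 13356 genes in all. Of the 33, 31 reached 1 FPKM in both groups, while Ifi44 did so in the Tgfbr2-deficient group only and Mx2 in the control group only.

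The libraries came from sorted brain cells, labelled as endothelial, of C57Bl6 mouse embryos at stage E14.5, of which 4 were labelled as lacking Tgfbr2 and 3 as controls. Tgfbr2 encodes a receptor chain that TGF-β needs to signal. Cells of all libraries were sorted by TdTomato, the red protein that the Ai14 allele makes where a recombinase has acted, and 2000 to 5000 cells gave each library. Not given in the sources used here are the recombinase driver, the deleted exons and whether libraries came from separate embryos, so the q-values reflect only how far these libraries spread, and that spread may be technical.

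The authors' table holds 1 FPKM value per group and gene, with libraries already combined. No value per library was analysed here, the depth is unknown, and the authors' q-value is the only measure of error. Genes were called higher or lower in the Tgfbr2-deficient group at a q-value under 0.05. The targeted gene, Tgfbr2, did not pass this threshold, at 65.4 FPKM in the Tgfbr2-deficient group and 91.1 FPKM in the control group (q = 0.0953 in the authors' deposited table), and a gene-level value can include exons left after recombination.

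In background terms, type I interferons bind a receptor made of Ifnar1 and Ifnar2, whose kinases Jak1 and Tyk2 phosphorylate STAT proteins such as Stat2. These join Irf9 in a complex that enters the nucleus and binds the interferon-stimulated response element (ISRE) in target promoters. Interferon-γ acts mainly through the GAS element. Microglia and brain endothelium both carry interferon receptors and can mount this response.

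The promoters below show matches to the ISRE core in part of the list. They are examples from the 10 genes with a match before the start site, and Gbp2, Ifit3, Oas3 and Stat2 are not shown. The ISRE core was searched as GAAANNGAAA and the GAS element as TTCNNNGAA, on both strands, in RefSeq promoters of the GRCm38.p6 build that run from 250 bases before to 50 bases after the start site. Promoters were matched for 25 of the 33 genes. The lines run 5′ to 3′ on the strand of the gene and end at or before the start site, and capitals mark the bases of each match to the ISRE core (in reverse complement for Ifit1 and Rsad2).
Isg15, chr4:156200855-156200904, minus strand: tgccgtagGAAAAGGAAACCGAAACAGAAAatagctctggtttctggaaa
Ifit1, chr19:34640784-34640833, plus strand: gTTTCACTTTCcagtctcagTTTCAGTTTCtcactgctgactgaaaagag
Rsad2, chr12:26456543-26456592, minus strand: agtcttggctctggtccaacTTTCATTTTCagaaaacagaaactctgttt
Bst2, chr8:71537567-71537616, minus strand: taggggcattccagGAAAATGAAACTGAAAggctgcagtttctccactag
Irgm1, chr11:48871421-48871464, minus strand: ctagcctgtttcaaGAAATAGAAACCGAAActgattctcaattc
Oas1a, chr5:120907526-120907559, minus strand: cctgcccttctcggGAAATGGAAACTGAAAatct

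Of the 25 matched genes, 14 held the ISRE core (56%), against 1079 of all 27025 genes with a promoter (3.99%). The 14 were Bst2, Ddx58, Eif2ak2, Gbp2, Ifih1, Ifit1, Ifit3, Ifitm3, Irgm1, Isg15, Oas1a, Oas3, Rsad2 and Stat2. Before the start site alone, 10 of 25 held it (40%), against 3.46% of all genes. Overlapping matches stood in tandem in Isg15, Bst2, Irgm1 and Oas1a. The GAS element was found in 7 of 25 (28%), against 9.55% of all genes, and in 4 of these 7 the ISRE core was present too: Bst2, Eif2ak2, Ifitm3 and Oas1a. In Bst2 and Ifitm3 the GAS match overlapped an ISRE core match. Genes that held the ISRE core were higher (Rsad2), lower (Bst2, Eif2ak2, Irgm1 and Oas1a) and not called (9 genes) in the Tgfbr2-deficient group. Of the whole list of 33, 3 were higher (9.09%) and 10 lower (30.3%), and of all tested genes 23.9% were higher and 14.7% lower. Whether calls differed with the motif was not tested. A match describes these letters in this window and is not evidence of binding.

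**Figure D1:**
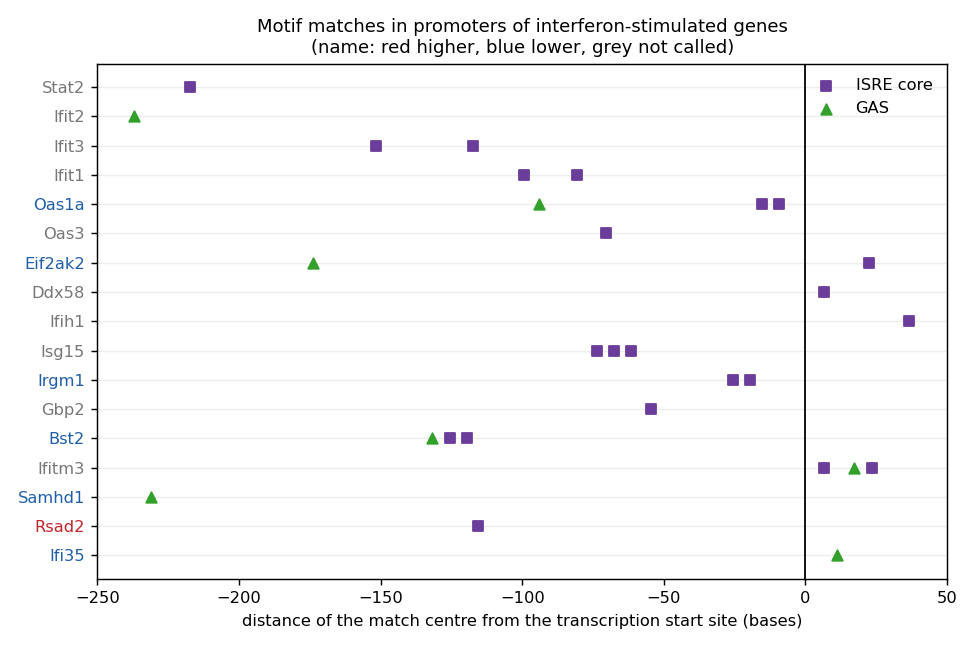
Position of each match to the ISRE core (squares) and the GAS element (triangles) along the promoters of the genes that held at least 1 match, in bases from the transcription start site, with gene names coloured by their call. The 14 genes with the ISRE core include 1 gene called higher, 4 called lower and 9 not called. Of all tested genes, 23.9% were higher and 14.7% lower.

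Most of the changes among the 33 genes were moderate falls. Samhd1, Oas2, Ifi35, Irgm1, Trim25, Bst2, Eif2ak2, Oas1a, Irf9 and Parp14 were lower in the Tgfbr2-deficient group, and Ifi44, Rsad2 and Oasl1 were higher. That is 10 genes lower (30.3%), where 14.7% of all tested genes were lower, and 3 genes higher (9.09%), where 23.9% of all tested genes were higher. The other 20 were not called. The families described below hold few genes each, so their counts are not read as results about a family. The falls stood at 0.531 to 0.701 times the control level, and only Ifi44 differed by more than 2-fold. The median log2 fold of FPKM + 1 (which understates the change of low genes) was −0.29 for the 33 genes and −0.08 for all tested genes. The sign of the list median depended on scaling. When ribosomal protein genes were taken as the centre, each log2 fold rose by 0.54 and the list median became 0.25. Of the genes called lower, Irf9 and Parp14 then turned positive. Every uncalled gene with a negative fold turned positive too, except Ifi27l2a, at −0.015.

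Calls in the whole table depended on level, so the genes were also set beside genes of similar abundance, a range chosen after seeing the data. At a mean of 5 to 50 FPKM, 9 of 22 interferon-stimulated genes were lower (40.9%) and 1 was higher (4.55%). Of the 7144 tested genes in that range, 15.7% were lower and 15.5% were higher. Under 5 FPKM, 2 of 8 were higher (25%) and 0 were lower, where 44.8% of all tested genes at that level were higher and 2.93% were lower. Of these 2, Ifi44 passed the minimum level through the Tgfbr2-deficient group alone, so it could enter only as a rise. Other genes of the whole table could enter through 1 group in the same way. How many did was not counted, so the shares under 5 FPKM are not a matched comparison.

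Markers of cell types moved between the same groups. Of 19 tested microglia and macrophage markers, 16 were lower and 0 higher, with a summed level of 6419 FPKM in the Tgfbr2-deficient group and 13359.7 FPKM in the control group. Of 20 pan-endothelial markers, 18 were higher and 1 lower, with a sum of 541 FPKM in the Tgfbr2-deficient group and 153 FPKM in the control group, so the label of endothelial cells stands beside a larger macrophage sum in both groups. Higher calls were given to 8 of 9 mural and 10 of 10 fibroblast and meningeal markers, with 0 lower, and the 9 monocyte and dendritic cell markers had 2 higher and 2 lower. Of 10 lymphocyte markers 4 were tested, and the 2 called higher passed the minimum level through the Tgfbr2-deficient group alone, so they could enter only as rises. The same holds for 8 of the 18 pan-endothelial, 4 of the 8 mural, 1 of the 10 fibroblast and meningeal and both monocyte and dendritic cell markers called higher. In the other direction, 1 of the 2 monocyte and dendritic cell markers called lower passed the minimum level through the control group alone. The summed levels in the Tgfbr2-deficient and control groups were 72.7 and 12.7 FPKM for mural, 1086 and 131 FPKM for fibroblast and meningeal, 17.3 and 5.66 FPKM for lymphocyte, and 70.2 and 101 FPKM for monocyte and dendritic cell markers. No list of markers had a gene at 0 FPKM in both groups. Each of the 33 interferon-stimulated genes had a log2 fold above the macrophage median of −1.08 and below the pan-endothelial median of 2.65. The share of all tested genes between these medians was not computed, so this shows nothing particular to the list. The part of these markers in the results was not tested, and in sorted bulk RNA fewer cells of a type and less RNA per cell cannot be told apart.

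**Figure D2:**
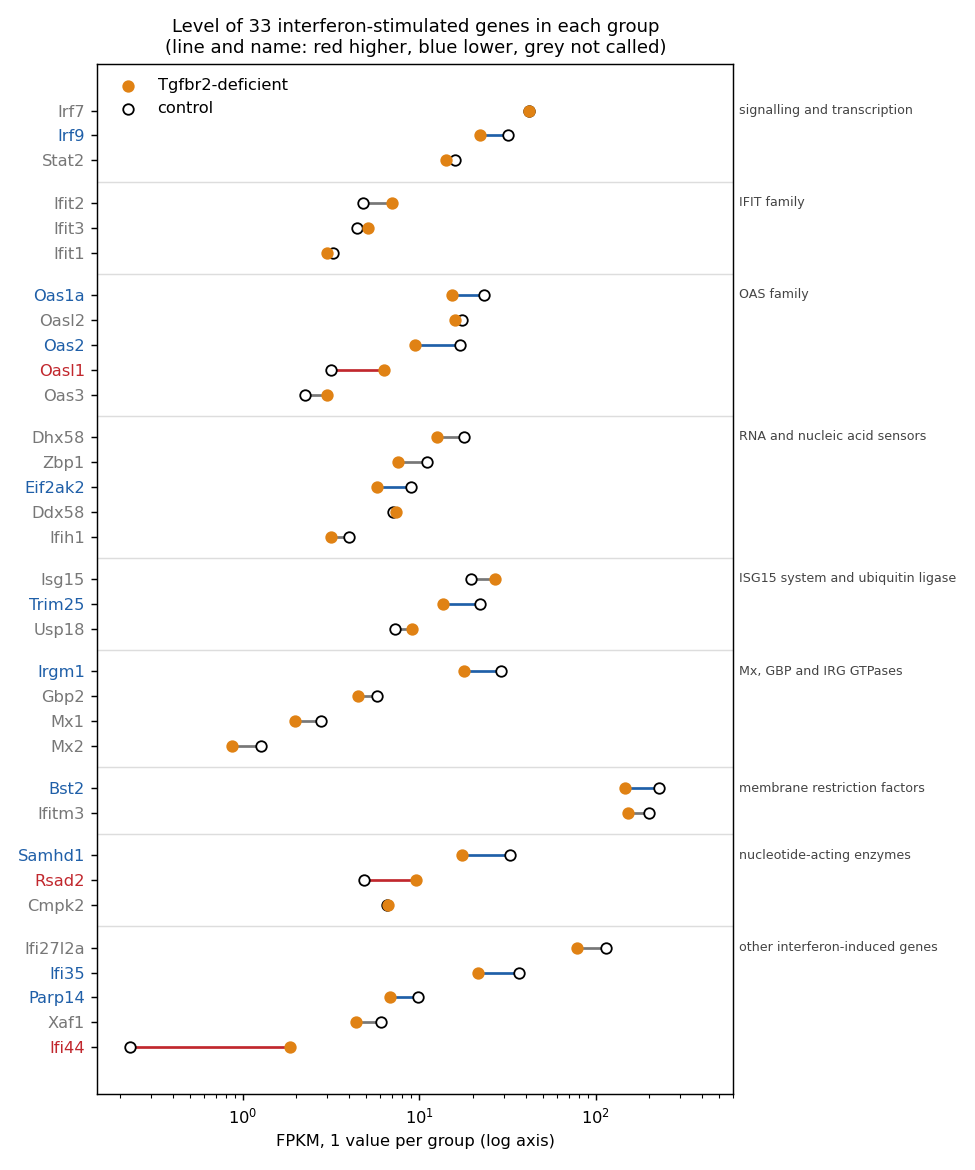
FPKM of each of the 33 genes on a log axis, 1 value per group, in Tgfbr2-deficient (orange) and control (open) libraries, grouped by role, with names coloured by call. Bst2, Ifitm3 and Ifi27l2a stand to the right in both groups, and Ifi44 has the widest gap, at 1.86 FPKM in the Tgfbr2-deficient group and 0.231 FPKM in the control group.

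The genes spanned 0.873 to 152 FPKM in the Tgfbr2-deficient group and 0.231 to 229 FPKM in the control group. Ifitm3, Bst2 and Ifi27l2a were the most abundant in both and made up 53.8% of the summed level of the list in the Tgfbr2-deficient group and 57.7% in the control group. The sum was 698 FPKM in the Tgfbr2-deficient group and 943 FPKM in the control group. Of the 8 most abundant genes, 7 were shared by the groups: Ifitm3, Bst2, Ifi27l2a, Irf7, Irf9, Ifi35 and Irgm1. Isg15 was among the 8 in the Tgfbr2-deficient group only and Samhd1 in the control group only. With no values per library, neighbours in this order cannot be told apart by their spread.

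Of the transcription factors of the response, Irf9 fell and Stat2 and Irf7 did not pass the test. Irf9, the DNA-binding subunit of the complex that reads the ISRE, fell to 22.1 FPKM in the Tgfbr2-deficient group, against 32.0 FPKM in the control group (q = 0.0422 in the authors' deposited table). Stat2, its partner, stood at 14.2 FPKM in the Tgfbr2-deficient group and 15.9 FPKM in the control group. Irf7, which amplifies type I interferon production, stood at 41.5 FPKM in the Tgfbr2-deficient group and 41.9 FPKM in the control group (q = 0.967 in the authors' deposited table). Irf7 is itself induced by interferon, and its level was the fourth of the list in both groups.

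None of the 3 IFIT genes, whose proteins bind viral RNA and block its translation, passed the test. Among all tested genes, 23.9% were higher and 14.7% lower, so no call among 3 genes says little about the family. Ifit2 had 6.96 FPKM in the Tgfbr2-deficient group and 4.78 FPKM in the control group (p = 0.0288, q = 0.0687 in the authors' deposited table). Ifit3 had 5.14 FPKM in the Tgfbr2-deficient group and 4.45 FPKM in the control group. Ifit1 had 2.99 FPKM in the Tgfbr2-deficient group and 3.25 FPKM in the control group. The values of Ifit3 and Ifit1 are uncertain, since 51.2% of the 50-base words of Ifit3 transcripts also occur in Ifit3b and 7.13% of those of Ifit1 in Ifit1bl1 and Ifit1bl2.

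The OAS genes make oligoadenylates that activate the nuclease RNase L when double-stranded RNA is present, or are relatives of those that do. They moved in different directions. Oas2 fell to 9.39 FPKM in the Tgfbr2-deficient group, against 17.1 FPKM in the control group, the second deepest fall of the list (q = 0.00029 in the authors' deposited table). Oas1a fell to 15.3 FPKM in the Tgfbr2-deficient group, against 23.1 FPKM in the control group (q = 0.0311 in the authors' deposited table), with 57.6% of its 50-base words shared, mostly with Oas1g. Oasl1, which in mouse restrains translation of Irf7, rose to 6.32 FPKM in the Tgfbr2-deficient group, against 3.16 FPKM in the control group (q = 0.0089 in the authors' deposited table). Oasl2 had 15.997 FPKM in the Tgfbr2-deficient group and 17.4 FPKM in the control group, and Oas3 had 3.01 FPKM in the Tgfbr2-deficient group and 2.24 FPKM in the control group. Neither passed the test.

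Of 5 sensors of foreign nucleic acid, only Eif2ak2 was called, where 23.9% of all tested genes were higher and 14.7% lower. Eif2ak2 encodes PKR, the kinase that stops translation on binding double-stranded RNA, and fell to 5.76 FPKM in the Tgfbr2-deficient group, against 8.99 FPKM in the control group (q = 0.0207 in the authors' deposited table). Ddx58, which encodes the RNA sensor RIG-I, had 7.33 FPKM in the Tgfbr2-deficient group and 7.12 FPKM in the control group. Ifih1, which encodes the related sensor MDA5, had 3.17 FPKM in the Tgfbr2-deficient group and 4.001 FPKM in the control group. Dhx58, whose product LGP2 tunes both, had 12.6 FPKM in the Tgfbr2-deficient group and 17.9 FPKM in the control group (p = 0.0326, q = 0.0763 in the authors' deposited table). Zbp1, a sensor of Z-form nucleic acid that can start necroptosis, had 7.53 FPKM in the Tgfbr2-deficient group and 10.996 FPKM in the control group.

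Isg15 and its protease did not pass the test, while the ubiquitin ligase Trim25 fell. Trim25, which helps to activate RIG-I, fell to 13.6 FPKM in the Tgfbr2-deficient group, against 22.1 FPKM in the control group (q = 0.0039 in the authors' deposited table). Isg15, a ubiquitin-like protein attached to other proteins after interferon, had 27.0 FPKM in the Tgfbr2-deficient group and 19.7 FPKM in the control group (q = 0.214 in the authors' deposited table). Usp18, which removes Isg15 from proteins and damps the receptor, had 9.14 FPKM in the Tgfbr2-deficient group and 7.235 FPKM in the control group.

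Irgm1 was the only called gene among 4 dynamin-like and immunity-related GTPases, where 23.9% of all tested genes were higher and 14.7% lower. Irgm1, which acts in defence against intracellular pathogens and in autophagy, fell to 17.8 FPKM in the Tgfbr2-deficient group, against 29.0 FPKM in the control group (q = 0.00699 in the authors' deposited table). Gbp2, a guanylate-binding protein, had 4.50 FPKM in the Tgfbr2-deficient group and 5.72 FPKM in the control group. Mx1 had 1.97 FPKM in the Tgfbr2-deficient group and 2.77 FPKM in the control group. Mx2, which GENCODE M21 annotates as a polymorphic pseudogene, had 0.873 FPKM in the Tgfbr2-deficient group and 1.26 FPKM in the control group.

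The membrane restriction factors were the most abundant members, and Bst2 fell. Bst2 encodes tetherin, which holds budding virions at the cell surface, and fell to 146 FPKM in the Tgfbr2-deficient group, against 229 FPKM in the control group (q = 0.00747 in the authors' deposited table). Its level was at or above that of 97.1% of tested genes in the Tgfbr2-deficient group and 97.7% in the control group. Ifitm3, which hinders fusion of viral and endosomal membranes, had 152 FPKM in the Tgfbr2-deficient group and 201 FPKM in the control group (q = 0.127 in the authors' deposited table), with 10.02% of its 50-base words shared with other transcripts.

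The 3 enzymes that act on nucleotides gave a fall, a rise and no call. Samhd1, which hydrolyses deoxynucleotides, showed the deepest fall of the list, to 17.4 FPKM in the Tgfbr2-deficient group, against 32.7 FPKM in the control group (0.531-fold, q = 0.00029 in the authors' deposited table). Rsad2, which encodes viperin, an enzyme that makes a chain-terminating nucleotide, rose to 9.61 FPKM in the Tgfbr2-deficient group, against 4.86 FPKM in the control group (1.98-fold, q = 0.00029 in the authors' deposited table). Cmpk2, a mitochondrial nucleotide kinase, had 6.63 FPKM in the Tgfbr2-deficient group and 6.53 FPKM in the control group (q = 0.957 in the authors' deposited table).

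Among the remaining interferon-induced genes, Ifi44 rose, Ifi35 and Parp14 fell, and Ifi27l2a and Xaf1 were not called. Ifi44 rose to 1.86 FPKM in the Tgfbr2-deficient group, against 0.231 FPKM in the control group (8.06-fold, q = 0.00029 in the authors' deposited table). It passed the minimum level through the Tgfbr2-deficient group alone, so its fold rests on a control value near the bottom of the tested range, at or above 2.05% of tested genes. Ifi35 fell to 21.5 FPKM in the Tgfbr2-deficient group, against 36.6 FPKM in the control group (q = 0.00375 in the authors' deposited table). Parp14, an ADP-ribosyltransferase, fell to 6.85 FPKM in the Tgfbr2-deficient group, against 9.77 FPKM in the control group (q = 0.0486 in the authors' deposited table). Ifi27l2a had 77.8 FPKM in the Tgfbr2-deficient group and 114.5 FPKM in the control group (p = 0.0206, q = 0.0524 in the authors' deposited table), just outside the threshold. Xaf1, an antagonist of the apoptosis inhibitor XIAP, had 4.40 FPKM in the Tgfbr2-deficient group and 6.09 FPKM in the control group.

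**Figure D3:**
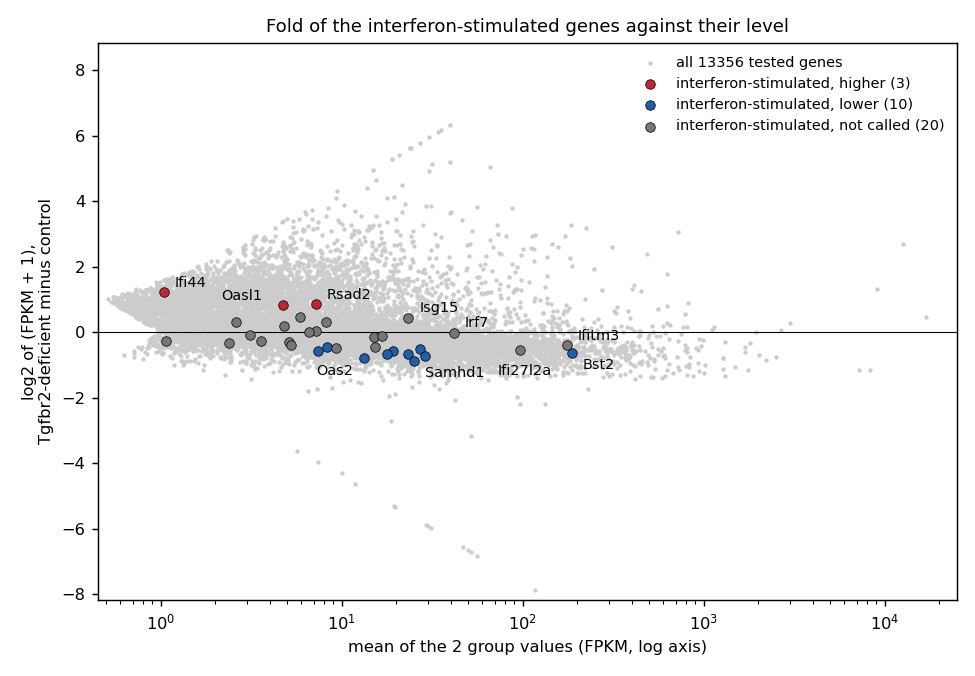
Difference in log2 of (FPKM + 1), Tgfbr2-deficient minus control, against the mean of both group values on a log axis, for all 13356 tested genes (light grey) and the 33 interferon-stimulated genes coloured by call. The 10 genes called lower lie between −0.87 and −0.46, and the 3 called higher between 0.81 and 1.22.

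The same comparison was made on either side of a mean of 20 FPKM, a level chosen after seeing the data. Of 9 genes above it, 5 fell (55.6%) and 0 rose, where 32.5% of all tested genes at that level were lower and 6.99% were higher. Of the 24 at 20 FPKM or less, 5 fell (20.8%) and 3 rose (12.5%), where 6.39% of all tested genes were lower and 31.9% were higher. The lower range takes in genes that passed the minimum level through 1 group alone, Ifi44 and Mx2 among them, and these could move in 1 direction only. The difference between the members above and below 20 FPKM was not tested. The 3 genes that rose were among the less abundant members in the control group, at 0.231, 3.16 and 4.86 FPKM for Ifi44, Oasl1 and Rsad2. In the Tgfbr2-deficient group these had 1.86, 6.32 and 9.61 FPKM.

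Several members are neighbours in the genome, and in 3 adjacent pairs only 1 gene was called (mm10 coordinates of the deposited table, counted from 1). Rsad2 (chromosome 12, 26442743 to 26456452) rose, whereas Cmpk2, 12762 bases away (26469215 to 26479837), was not called. Oasl1 (chromosome 5, 114923240 to 114937911) rose, whereas Oasl2, 10994 bases away (114896934 to 114912245), was not called. Oas2 (chromosome 5, 120730333 to 120749848) fell, whereas Oas3, 3249 bases away (120753098 to 120777659), was not called. The difference between neighbours was not tested. Ifit2, Ifit3 and Ifit1 lie in this order on chromosome 19 and Mx1 beside Mx2 on chromosome 16, and none of these 5 was called. The deepest fall, Samhd1, lies on chromosome 2 from 157097529 to 157135222, and the most abundant gene in the control group, Bst2, on chromosome 8 from 71534262 to 71537437.

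Interferons themselves were listed at or near 0. All 19 interferon genes with a row, 11 of them numbered interferon-α genes, went untested by the authors, and 16 were listed at 0 FPKM in both groups, Ifnb1 among them. The highest value was 0.0745 FPKM, for Ifnz in the control group.

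Other genes of the interferon pathway, called by the same rule from the authors' deposited table, held more falls than rises in each list below. Of all tested genes, 14.7% were lower and 23.9% higher. Above a mean of 20 FPKM, 32.5% were lower and 6.99% higher, and at 20 FPKM or less 6.39% were lower and 31.9% higher. The lists were not matched for level, so their counts are not read as particular to the pathway. Of 13 tested genes of the receptors and the JAK-STAT pathway, 6 fell and 2 rose. Ifngr1, a chain of the interferon-γ receptor, fell to 97.4 FPKM in the Tgfbr2-deficient group, against 200.1 FPKM in the control group. Il10rb, shared by interleukin and interferon-λ receptors, fell to 74.1 FPKM in the Tgfbr2-deficient group, against 145 FPKM in the control group. Ptpn6, a phosphatase of blood cells that dampens the signal, fell to 133 FPKM in the Tgfbr2-deficient group, against 274 FPKM in the control group. The 2 that rose were Socs1, the feedback inhibitor of the kinases, to 9.002 FPKM in the Tgfbr2-deficient group, against 3.35 FPKM in the control group, and Jak2, to 12.5 FPKM in the Tgfbr2-deficient group, against 8.67 FPKM in the control group.

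Of 6 tested interferon regulatory factor genes, 4 fell and 1 rose, and the one that rose passed the minimum level through the Tgfbr2-deficient group alone. Irf2bp2, kept on the same list but a protein that binds Irf2 and not one of the family, fell to 36.3 FPKM in the Tgfbr2-deficient group, against 58.9 FPKM in the control group. Irf8, a factor of myeloid cells, fell to 69.1 FPKM in the Tgfbr2-deficient group, against 127 FPKM in the control group. Irf5, which acts downstream of Toll-like receptors, fell to 53.5 FPKM in the Tgfbr2-deficient group, against 106 FPKM in the control group, and Irf2 to 14.2 FPKM in the Tgfbr2-deficient group, against 23.9 FPKM in the control group.

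Of 17 genes of sensing and its adaptors, 10 fell and 0 rose. Unc93b1, which carries Toll-like receptors to endosomes, fell to 238 FPKM in the Tgfbr2-deficient group, against 546 FPKM in the control group. Myd88, their adaptor, fell to 41.4 FPKM in the Tgfbr2-deficient group, against 91.4 FPKM in the control group. Tmem173, which encodes STING, fell to 15.9 FPKM in the Tgfbr2-deficient group, against 28.8 FPKM in the control group, and Tlr7, a sensor of single-stranded RNA, to 15.1 FPKM in the Tgfbr2-deficient group, against 28.6 FPKM in the control group.

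Further type I response genes outside the list of 33 gave 23 that fell and 4 that rose, of 42 tested. Slfn2 fell to 53.2 FPKM in the Tgfbr2-deficient group, against 107 FPKM in the control group, and Ifi204, of the family of DNA sensors with a PYHIN structure, to 16.1 FPKM in the Tgfbr2-deficient group, against 31.1 FPKM in the control group. The 4 that rose included Ifitm1, a relative of Ifitm3, at 43.9 FPKM in the Tgfbr2-deficient group and 6.22 FPKM in the control group. Ube2l6, the enzyme that conjugates Isg15, rose to 301 FPKM in the Tgfbr2-deficient group, against 61.7 FPKM in the control group. The others were Isg20, an exonuclease, at 11.5 FPKM in the Tgfbr2-deficient group and 3.33 FPKM in the control group, and Helz2, at 1.96 FPKM in the Tgfbr2-deficient group and 1.12 FPKM in the control group.

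Of 12 tested genes that interferon-γ induces, 6 fell and 1 rose. Gbp7 fell to 14.9 FPKM in the Tgfbr2-deficient group, against 34.1 FPKM in the control group, Ifi47 to 8.98 FPKM in the Tgfbr2-deficient group, against 18.7 FPKM in the control group, and Gbp3 to 7.37 FPKM in the Tgfbr2-deficient group, against 12.3 FPKM in the control group. Nos2, the inducible nitric oxide synthase, rose to 1.30 FPKM in the Tgfbr2-deficient group, against 0.0529 FPKM in the control group, and it too passed the minimum level through the Tgfbr2-deficient group alone. Among the falls, 1 gene of sensing and 1 interferon-γ gene passed it through the control group alone. The median log2 folds of FPKM + 1 were −0.53 for the further type I genes, −0.39 for the interferon-γ genes, −0.42 for the receptor and kinase genes, −0.67 for the 6 regulatory factors and −0.61 for the sensing genes. With folds centred on ribosomal protein genes, the first 3 of these medians turned positive.

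**Figure D4:**
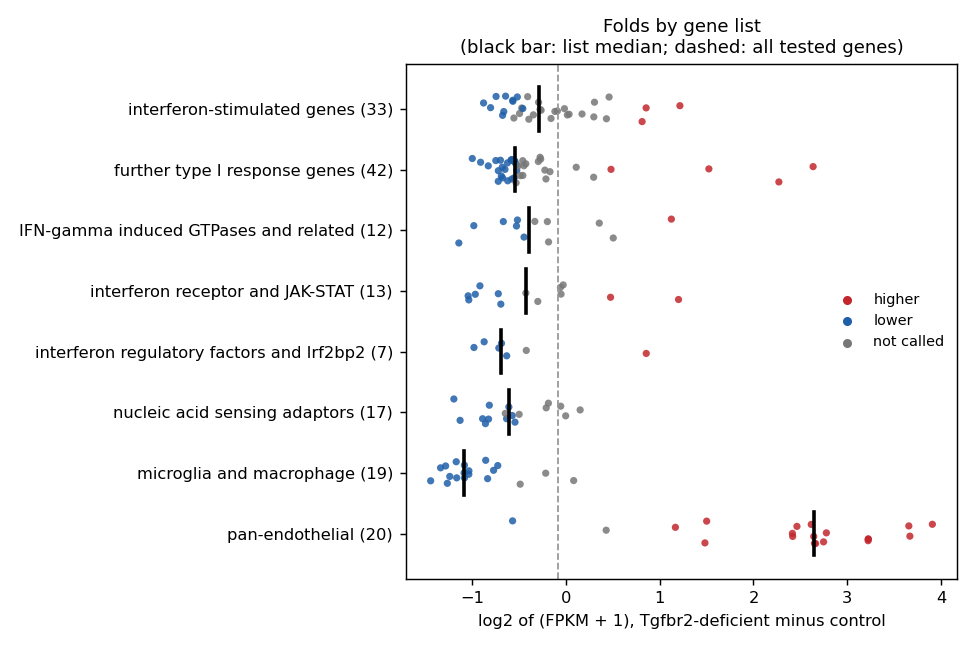
Difference in log2 of (FPKM + 1), Tgfbr2-deficient minus control, of each tested gene by list, with the list median as a black bar and the median of all tested genes as a dashed line. The interferon-stimulated median is −0.29, that of the microglia and macrophage markers −1.08 and that of the pan-endothelial markers 2.65.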

How the data were processed

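RNA was measured in 7 libraries, grouped by the genotype in the labels. Per the labels' protocols, the SMART-Seq v4 kit gave the complementary DNA and Nextera XT the libraries. These do not mark strand, so overlapping genes share reads. Exon bases were shared with another GENCODE M21 gene by 9 of the 33 genes: Irf7, Irf9, Oasl1, Dhx58, Eif2ak2, Usp18, Gbp2, Ifi35 and Parp14. Of these, Irf9, Oasl1, Eif2ak2, Ifi35 and Parp14 were called, and the part of the shared bases in their values is unknown. Per the submitters' processing notes, reads were processed on mm10 with TopHat2, Cufflinks 2.2.1 and Cuffdiff. Not given in the sources used here are the annotation and the options of each tool.

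The authors' deposited FPKM values are 1 per group and gene, per the file headers. The deposited log2 fold is Tgfbr2-deficient over control, without a pseudocount. The deposited test statistic, a score, was not used. The p-values and q-values were deposited by the authors and come from Cuffdiff. These q-values matched, within 5.23e-07, a Benjamini-Hochberg adjustment over the 14043 genes with test status OK. Depth per library is unknown, so no interval or floor is given, and no column (0) gave values per library.

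Genes of that status that reached 1 FPKM in a group were analysed with Python 3.11.15 and pandas 2.3.3, called at q under 0.05, and given log2 folds of FPKM + 1. The adjustment and calls were tested on simulated data. Starts in the file count from 0, and 1 was added. Shared 50-base words were counted between GENCODE M21 transcripts, and values of genes above 5% shared (Ifi35, Ifit1, Ifit3, Ifitm3 and Oas1a) are uncertain. The members and lists were chosen with earlier results of these data known. All 33 members are named. Other lists are represented by up to 4 called genes with the smallest p (ties by fold size) and those against the majority, while marker lists are given as counts. A gene named by this rule is not reported here. Alternatives were other FPKM minimums, q under 0.01, an added fold minimum, recomputed q-values, rows of several symbols left out, 2 centrings and a pseudocount of 0.1 FPKM.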

Additional observations from a re-analysis of the deposited data

How the results depend on the processing

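No paired analysis was possible because the deposited table holds 1 combined value per group, so leaving out a library could not be run either. Of the 28 alternative values for the counts, the median and the motif share of the interferon-stimulated genes, 22 stayed within 1.5 times for a count, within the median absolute deviation of the folds of the list for the median, or within the exact binomial interval of the main share for the motif. Among these 22, the list median ranged from −0.42 to −0.21 and the motif share was 40%. These bounds are rules for labelling and not measures of error, since the genes of the list are not replicates. The motif share is a count in reference sequence, and it did change, from 56% in the whole window to 40% in the part before the start site. Some of the 22 could not have moved. Dropping the FPKM minimum changes nothing, since all 33 genes already passed it. Centring on the median of tested genes adds 0.08, too little to turn any called fold. At q under 0.01 the genes lower in the Tgfbr2-deficient group became 6, since Irf9, Parp14, Oas1a and Eif2ak2 no longer passed. Where a log2 fold of 1 or more was also required, 1 gene was higher and 0 were lower. The shares of all tested genes at these stricter thresholds were not computed, so these counts show nothing particular to the list. With folds centred on ribosomal protein genes the list median turned to 0.25, Irf9 to 0.022 and Parp14 to 0.080. The calls were kept from the uncentred test, and 5 of the 13 called genes then had a positive fold. No test was run on centred folds. Among uncalled genes, every negative fold turned positive except that of Ifi27l2a, at −0.015. Under the same centring the medians turned to 0.11 for receptor and kinase genes, 0.0025 for further type I genes, 0.15 for interferon-γ genes and 0.40 for monocyte and dendritic cell markers. In these cases the construction of the alternative, a stricter threshold or a constant added to every fold, made the change. At a mean of 5 to 50 FPKM, an alternative chosen after seeing the data, 1 gene was higher, with 22 genes left. Leaving out the 5 genes that share sequence, also chosen after seeing the data, moved no count by over 1.5 times. Leaving Irf2bp2 out of the regulatory factors, again chosen after seeing the data, gave 4 lower of 6 and a median of −0.67, against 5 of 7 and −0.68 with it. How far depth limits the low values is unknown.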
